A study of Mus musculus with 2 samples.

Results

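The genes described here are the immunoglobulin constant genes and the J chain gene of the intestine of APC mice. The members were taken by symbol from the gene table and number 10 of 31053 genes. They are the heavy-chain constant genes Igha, Ighm, Ighd, Ighg1, Ighg2b and Ighg2c, the light-chain constant genes Igkc, Iglc1 and Iglc2, and Jchain. The related genes Ighg3, Ighe, Iglc3, Iglc4 and Igll1 are given where they touch a result. Both samples were single-cell RNA-seq (10x Genomics 3′ v3) libraries of all live cells from the proximal small intestine, 1 library from each of 2 mice. Both mice were Villin-CreERT2 Apc fl/fl, received 2 injections of 2 mg tamoxifen 24 h apart and were sampled on day 4. The villin promoter directs Cre to the intestinal epithelium, so that the lymphocytes described here carry the floxed allele without being the target of its deletion. No mouse of another genotype or treatment is part of the series, and the comparisons below are between cell classes within these 2 mice.

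An antibody is built of heavy and light chains. A B cell first makes the heavy chains of IgM and IgD from a shared transcript (constant genes Ighm and Ighd), and later may replace that constant region by class switching, for example to IgG (the Ighg genes) or IgA (Igha). Its light chain is either kappa (Igkc) or lambda (the Iglc genes), and a mature cell usually uses only the one or the other. Plasma cells are the antibody-secreting end stage, and those of the gut are known for secreting IgA. Jchain encodes the joining chain, which links IgA into dimers and IgM into pentamers for transport across the epithelium by the polymeric immunoglobulin receptor, Pigr.

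Barcodes with more than 100 genes, more than 400 UMIs (unique molecular identifiers, each a captured RNA molecule), under 5% mitochondrial and under 10% haemoglobin UMIs were kept. This left 7941 cells with 81060645 UMIs in mouse 1 and 6957 cells with 35474260 UMIs in mouse 2. The 10 members took 43.6% of the kept UMIs of mouse 1 and 24.9% of those of mouse 2. A barcode was counted as a plasma cell where Mzb1, Derl3 and Xbp1 together had at least 10 UMIs, which gave 2307 plasma cells in mouse 1 and 704 in mouse 2. Of these, 1550 (67.2%) and 436 (61.9%) also passed the gate of another class, most often the B cell gate, which plasma cells reached through Cd79b (median 3 and 2 UMIs per plasma cell). The epithelial gate was passed by 337 (14.6%) and 71 (10.1%) plasma cells. The T cell gate was passed by 235 (10.2%) and 77 (10.9%), and the myeloid gate by 93 (4.03%) and 59 (8.38%). The other classes held barcodes that passed their own gate alone: 356 and 78 B cells, 3021 and 5240 T cells, 749 and 194 epithelial cells and 506 and 346 myeloid cells. No doublet caller was run, and the libraries shared 24 barcode sequences (16 among kept cells).

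On the mouse genome build GRCm38, the heavy-chain constant genes lie on the minus strand of chromosome 12, in the order of transcription Ighm (113418558 to 113422730), Ighd (113406604 to 113416324), Ighg3, Ighg1 (113325240 to 113330523), Ighg2b (113302965 to 113307933), Ighg2c (113285325 to 113288932), Ighe and Igha (113254830 to 113260236). Igkc lies on the plus strand of chromosome 6 (70726435 to 70726966). The lambda genes lie on the minus strand of chromosome 16, Iglc1 at 19061618 to 19062071 and Iglc2 at 19198396 to 19200351. Jchain lies apart, on the minus strand of chromosome 5 (88519809 to 88527891).

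The heavy chains differ in the end that J chain holds. The last 60 coding bases, stop codon included, of the secreted forms of Igha (chr12:113258768-113258827), Ighm (chr12:113420867-113420926) and Ighg2b (chr12:113306389-113306448) are shown from the GENCODE M21 transcripts of GRCm38, minus strand, because IgA and IgM share a tailpiece that IgG2b lacks. Capitals mark the codon before the last sense codon, in Igha and Ighm the codon of the tailpiece cysteine that bonds with J chain.
Igha: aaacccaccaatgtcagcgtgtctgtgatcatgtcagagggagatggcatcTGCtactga
Ighm: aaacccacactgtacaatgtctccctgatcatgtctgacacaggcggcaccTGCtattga
Ighg2b: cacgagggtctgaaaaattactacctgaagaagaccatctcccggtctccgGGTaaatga

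Igha, Igkc and Jchain stood highest in plasma cells. Immunoglobulin genes together took 64.1% of plasma-cell UMIs in mouse 1 and 61.8% in mouse 2, and variable and joining genes were only 0.877% and 0.802%, so that nearly all of this RNA was counted on the constant genes and Jchain. Summed over plasma cells, Igkc, the kappa light chain, had 393316 CPM (UMIs of the gene scaled to a total of 1e6 UMIs) in mouse 1 and 375207 CPM in mouse 2. Igha, the IgA heavy chain, had 149100 and 165963 CPM. Jchain had 58530 and 61851 CPM. The mice thus lay close together for these 3 genes: 384261 ± 12805 CPM for Igkc, 157532 ± 11924 CPM for Igha and 60190 ± 2348 CPM for Jchain (SD, n = 2 mice). They lay far apart for the lambda gene Iglc1, with 27154 CPM in mouse 1 and 3340 CPM in mouse 2. UMIs count molecules at their 3′ end and were not divided by gene length.

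**Figure D1:**
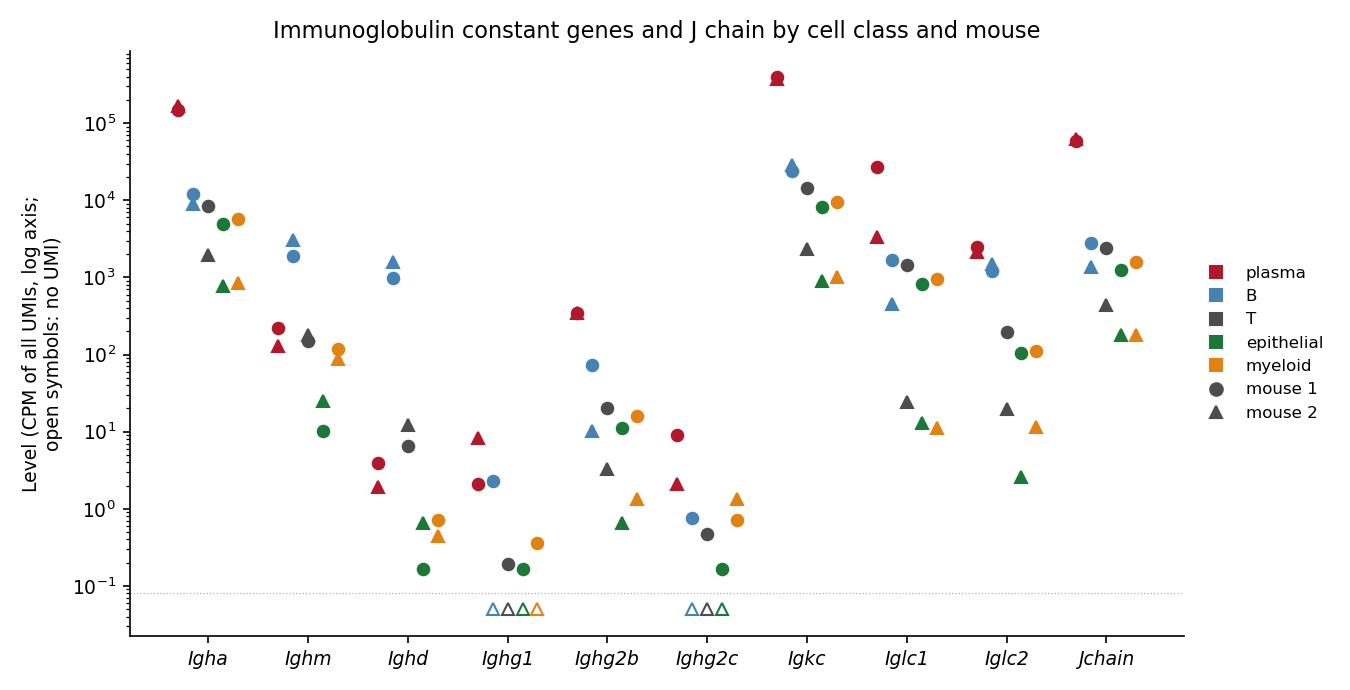
Level of each member (CPM of all UMIs, log axis) in the summed cells of 5 cell classes, circles for mouse 1 and triangles for mouse 2, with open symbols on the lowest line where no UMI was seen. Igha, Igkc and Jchain were highest in plasma cells of both mice, Ighm and Ighd were highest in B cells, and the classes other than plasma and B cells had more Igha, Igkc, Iglc1 and Jchain in mouse 1 than in mouse 2.

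Isotype choice was read cell by cell. A plasma cell was called for a heavy-chain gene where that gene had at least 10 UMIs, more than the 95th percentile of T cells of the same mouse (47 Igha UMIs in mouse 1 and 10 in mouse 2) and at least 80% of the heavy-chain constant UMIs of the cell. In mouse 1, 2265 of 2269 called cells were IgA (99.8%, exact Clopper-Pearson 95% interval 99.6 to 99.9%, which covers counting error only, as do all such intervals here). In mouse 2, 648 of 648 were IgA (100%, interval 99.4 to 100%). The mean was 99.9 ± 0.125% (SD, n = 2 mice). The 4 other called cells, all in mouse 1, were 3 Ighm cells and 1 Ighg2b cell. Mouse 2 had 0 of 648 cells for each other heavy-chain gene, and mouse 1 had 0 of 2269 for Ighd, Ighg1, Ighg2c, Ighg3 and Ighe. Taking 3 counts of the total as the limit for a count of 0, this allows a share of up to 0.463% for each in mouse 2 and 0.132% in mouse 1.

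The exceptions were clear in their UMIs. The 3 IgM cells held 3543, 3462 and 1971 Ighm UMIs beside 66, 93 and 49 Igha UMIs, with Jchain at 1161, 1226 and 331 UMIs. The IgG2b cell held 829 Ighg2b UMIs beside 38 Igha UMIs, and its Jchain stood at 199 UMIs. Their Igha counts lay between 38 and 93 UMIs, around the 95th percentile of T cells (47 UMIs), against a median of 3447 Igha UMIs in IgA kappa cells of that mouse. In mouse 1, 6 further plasma cells were mixed, among them 1 with 2243 Igha and 873 Ighg2b UMIs, and 32 had every heavy-chain gene below its floor. In mouse 2, 4 were mixed and 52 were below the floor. Of those below the floor, 25 of 32 and 45 of 52 passed the gate of another class. With 3 IgM cells and 1 IgG cell in mouse 1 and no such cell in mouse 2, the planned test of IgA against IgM plasma cells was not run.

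The gate itself set how many low cells entered. Just inside the gate, the 65 and 31 barcodes with 10 or 11 gate UMIs held a median of 297 and 8 Igha UMIs, and just outside, the 83 and 45 barcodes with 8 or 9 gate UMIs held 73 and 7. The 1451 and 352 cells with 50 or more gate UMIs held a median of 3843 and 4026 Igha UMIs. In mouse 2 the lowest band inside the gate was thus at the level of T cells, while the cells well inside it were alike in both mice.

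IgA cells often held a second heavy-chain gene at a far lower level. Of 2099 IgA kappa cells in mouse 1, 335 (16.0%, interval 14.4 to 17.6%) had 10 or more UMIs of Ighg2b, against 0 of 3021 T cells. In mouse 2, it was 127 of 637 cells (19.9%, interval 16.9 to 23.3%), against 0 of 5240 T cells. This mark is a raw count, and cells were not thinned to equal totals for it. Plasma cells had median totals of 22896 and 19981 UMIs, against 3252 and 2569 in T cells. In the cells with 10 or more, the median was 21 and 20 Ighg2b UMIs, and the highest were 451 and 897 UMIs. Ighm reached 10 UMIs in 63 cells (3.0%) and 42 cells (6.59%), against 2 of 3021 and 3 of 5240 T cells. Ighd did so in 3 cells and none, Ighg1 in 5 and 4 cells, Ighg2c in 5 and 2 cells, and Ighg3 in 22 cells of mouse 1. Ighg2b and Ighm rarely came together, with both at 10 or more UMIs in 5 cells of mouse 1 and 0 cells of mouse 2. Taking all second heavy-chain genes, 421 cells (20.1%) and 175 cells (27.5%) had 1 at 10 or more UMIs, and those genes together were at most 14.0% and 17.0% of the heavy-chain UMIs of a cell. Cells with and without Ighg2b had similar Igha counts, with medians of 3860 and 3385 UMIs in mouse 1 and 3831 and 3615 UMIs in mouse 2. Genes of the Ighg group resemble each other in sequence, so reads shared between them may be divided unevenly.

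**Figure D2:**
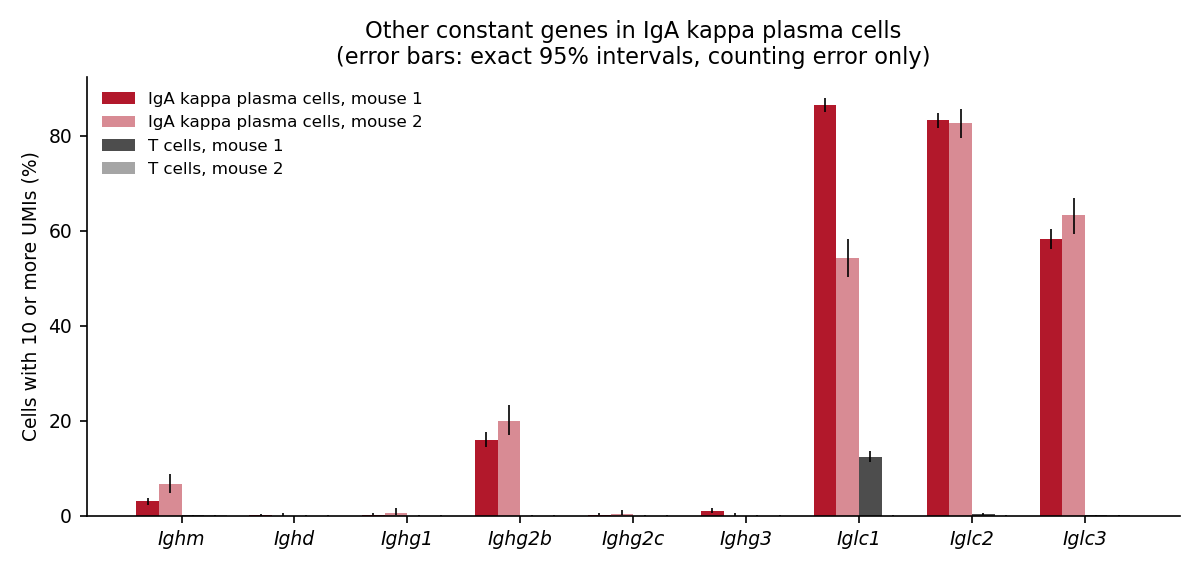
Share of cells with 10 or more UMIs of constant genes other than Igha and Igkc, in IgA kappa plasma cells (red) and T cells (grey) of each mouse, with exact 95% intervals for counting error only. Ighg2b passed this mark in 16.0% and 19.9% of IgA kappa cells and Iglc2 in 83.3% and 82.7%, while Ighd, Ighg1 and Ighg2c stayed near 0. Counts were not scaled to totals, and plasma cells had median totals of 22896 and 19981 UMIs against 3252 and 2569 in T cells.

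Most IgA cells used the kappa chain. A light chain was called kappa where Igkc was at least 80% of kappa and lambda UMIs and lambda where Iglc1, Iglc2 and Iglc3 together were at least 50%, each above the floor set on T cells. In mouse 1, 2099 of 2226 IgA cells with a light-chain call were kappa and 127 were lambda (5.71%, interval 4.78 to 6.75%). In mouse 2, 637 of 641 were kappa and 4 were lambda (0.624%, interval 0.170 to 1.59%). The mean lambda share was 3.17 ± 3.59% (SD, n = 2 mice), so that the 2 mice differed by more than the counting error of either, and with 2 mice of 1 group nothing further was tested. Lambda shares over cells fell in separate groups. Kappa cells had a median of 0.879% and 0.913% lambda among their light-chain UMIs, lambda cells 98.1% and 98.9%, and only 25 of 2265 and 1 of 648 IgA cells lay between 20 and 80%. The planned test of kappa against lambda cells was not run, since mouse 2 had 4 lambda cells.

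**Figure D3:**
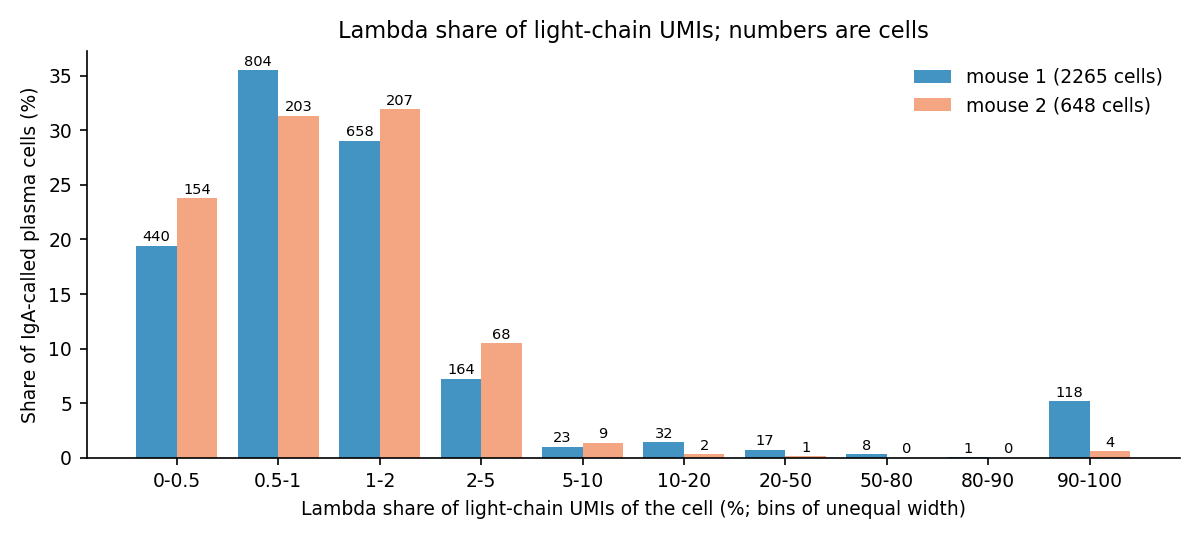
Share of IgA-called plasma cells (bars, % of 2265 cells in mouse 1 and of 648 in mouse 2) by the lambda share of their light-chain UMIs, in bins of unequal width, with the number of cells above each bar. Most cells lay below 5%, a second group of 118 and 4 cells lay above 90%, and few lay between.

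Lambda cells were led by Iglc1. It was the highest lambda gene in 125 of 127 lambda IgA cells of mouse 1, Iglc2 led in the other 2, and Iglc1 led in 4 of 4 in mouse 2. Iglc1 had a median of 10352 UMIs per lambda cell in mouse 1 and 6939 in mouse 2, about the level of Igkc in kappa cells (9822 and 8037 UMIs). Igha and Jchain, which took no part in the light-chain call, had medians of 3218 and 1247 UMIs in lambda cells of mouse 1 against 3447 and 1373 UMIs in kappa cells. In mouse 2 the medians were 2824 and 1368 UMIs in 4 lambda cells against 3695 and 1342 UMIs in kappa cells.

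Iglc2 and Iglc3 were seen at low counts in most IgA kappa cells. Iglc2 had a median of 34 and 33 UMIs per IgA kappa cell and was seen in 98.4% and 94.8% of them, and Iglc3 had a median of 12 and 13 UMIs and was seen in 96.6% and 97.5%. Lambda cells held a like amount of Iglc2, with a median of 32 UMIs in mouse 1 and 21.5 UMIs in mouse 2. T cells had a median of 0 for both genes in both mice. Their median totals were 3252 and 2569 UMIs, against 22896 and 19981 in plasma cells. Iglc1 had a median of 22 and 11 UMIs in the same kappa cells and was seen in 99.9% and 83.5% of them, against a median of 4 and 0 UMIs in T cells. Summed over IgA kappa cells, there were 2.64 and 3.20 Iglc2 UMIs for each Iglc3 UMI. A single mouse 1 cell reached 8299 Iglc3 UMIs, beside 12769 Igkc UMIs, and was called mixed for its light chain. Iglc2 and Iglc3 are close copies, and the split of reads between them is uncertain.

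The closeness of the lambda genes shows in the last 150 coding bases, stop codon included (GENCODE M21, GRCm38, minus strand). They are Iglc1 at chr16:19061752-19061901, Iglc2 at chr16:19198536-19198685 and Iglc3 at chr16:19065365-19065514. Capitals mark the 53 positions at which the 3 genes are not all alike. Iglc2 and Iglc3 differ at 4 of the 150 bases.
Iglc1: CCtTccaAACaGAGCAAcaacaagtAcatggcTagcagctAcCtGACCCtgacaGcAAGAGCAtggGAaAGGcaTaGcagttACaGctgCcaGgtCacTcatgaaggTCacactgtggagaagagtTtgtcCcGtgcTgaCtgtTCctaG
Iglc2: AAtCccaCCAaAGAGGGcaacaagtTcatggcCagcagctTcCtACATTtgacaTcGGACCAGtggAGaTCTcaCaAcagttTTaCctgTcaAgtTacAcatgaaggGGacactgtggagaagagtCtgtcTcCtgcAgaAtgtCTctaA
Iglc3: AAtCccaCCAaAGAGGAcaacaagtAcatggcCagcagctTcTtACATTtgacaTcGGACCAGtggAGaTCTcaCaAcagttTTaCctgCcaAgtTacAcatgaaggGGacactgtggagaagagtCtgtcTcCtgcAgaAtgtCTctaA
Over the whole coding part, Iglc2 and Iglc3 were 96.5% identical, against 74.7% for Iglc1 and Iglc2 and 75.6% for Iglc1 and Iglc3. Downstream of the stop codon, Iglc2 and Iglc3 were 93.3% identical. Where the reads of these libraries fell along the genes was not examined.

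Within IgA kappa cells the 3 abundant members varied together. Igha made up a median of 15.6% and 18.8% of the UMIs of a cell, Igkc 43.0% and 40.2%, and Jchain 6.01% and 6.67%. From the 5th to the 95th percentile of cells, Igha ranged from 8.74 to 25.3% in mouse 1 and from 8.22 to 26.1% in mouse 2. Per UMI of all other genes, Spearman's rho of Jchain with Igha was 0.524 over 2099 cells and 0.668 over 637 cells, that of Igkc with Igha 0.528 and 0.591, and that of Jchain with Igkc 0.684 and 0.668. These cells share a library and each pair shares its denominator, so the values are descriptions. Jchain was at or below the 95th percentile of T cells in 3 of 2099 and 1 of 637 IgA kappa cells.

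In T cells, which do not make antibodies, every abundant member was still counted. In mouse 1 the median T cell held 26 Igha, 40 Igkc, 7 Jchain and 4 Iglc1 UMIs. In mouse 2 it held 5, 6, 1 and 0. Epithelial cells were alike, with 34 Igha and 55 Igkc UMIs at the median in mouse 1 and 5 and 6 in mouse 2, and so were myeloid cells, with 27 and 45 in mouse 1 and 5 and 6 in mouse 2. A UMI of Igha was seen in 99.97% and 99.1% of T cells and in 100% and 98.5% of epithelial cells. Whether these counts came from RNA free in the suspension was not tested. A value at or below the count in these classes is read here as background. Ighm and Ighd are set apart, since both were lower in epithelial than in T cells. Ighm had 10.1 and 24.8 CPM in epithelial cells against 148 and 180 CPM in T cells. For those genes the T cell level is a point of comparison only. The background of the abundant members was higher in mouse 1, where plasma cells were 29.1% of kept cells, than in mouse 2, where they were 10.1%. The part of that difference was not tested.

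The count per droplet moved less than depth in T cells. T cells were split by total UMIs into 4 equal bins. From the shallowest to the deepest bin, the median total rose from 2040 to 4883 UMIs in mouse 1, and median Igha stood at 25, 25, 24 and 28 UMIs and median Igkc at 46.5, 41, 36 and 39 UMIs. In mouse 2 the total rose from 1604 to 4064 UMIs, Igha stood at 4, 5, 5 and 6 UMIs, and Igkc at 5, 5, 6 and 6 UMIs. On the CPM scale, median Igha in the same bins went from 13069 to 5311 CPM in mouse 1 and from 2773 to 1275 CPM in mouse 2. In T cells, a level of Igha in CPM thus depended on the total UMIs of the cells, by which CPM divides. T cells had 8461 and 1947 CPM of Igha, and epithelial cells, with higher totals, 4879 and 772 CPM.

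**Figure D4:**
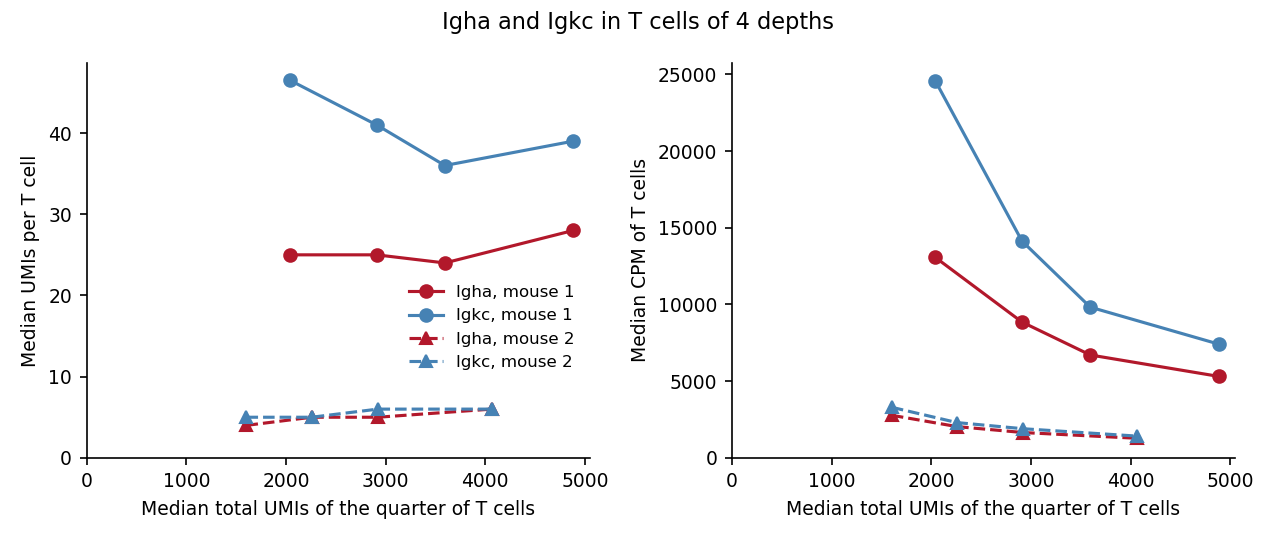
Median UMIs per cell (left) and median CPM (right) of Igha (red) and Igkc (blue) in 4 equal bins of T cells ordered by total UMIs, solid lines for mouse 1 and dashed for mouse 2. The count of Igha stayed between 24 and 28 UMIs in mouse 1 and between 4 and 6 in mouse 2, while its CPM fell with depth.

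The mixture in these droplets differed from that in plasma cells. There were 1.70 Igkc UMIs for each Igha UMI in T cells of mouse 1, 1.67 in epithelial and 1.67 in myeloid cells, against 2.64 in plasma cells. In mouse 2 the values were 1.19, 1.16 and 1.16, against 2.26 in plasma cells. Jchain followed, with 0.284 and 0.227 UMIs per Igha UMI in T cells against 0.393 and 0.373 in plasma cells. The share of Iglc1 among light-chain UMIs was 8.97% in T cells of mouse 1 and 1.01% in those of mouse 2, and 6.41% and 0.876% in plasma cells, so that the gap between the mice was present in both classes. Leaving out the 1% of T cells with the most member UMIs gave 1.72 and 1.18 Igkc UMIs per Igha UMI.

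Against T cells, plasma cells had more of most members. The sums of plasma, B, T, epithelial and myeloid cells of each mouse were compared by edgeR's quasi-likelihood test with Benjamini-Hochberg adjustment, and 9 of the 10 members passed the filter on low counts (Ighg2c did not). Of these 9, 7 were higher in plasma cells (6 without the 3 cells called IgM), beside 24.5% of all 12733 genes tested higher and 20.7% lower, with a median log2 fold change of 6.53 over the 9 and 0.05 over all genes. These fold changes are relative to the bulk of genes after TMM scaling, and exceed the ratios of CPM because immunoglobulin RNA fills most of a plasma-cell library. Igha was higher by 6.56 ± 1.32 on the log2 scale (SE, adjusted p = 0.00388), Igkc by 7.17 ± 1.58 (adjusted p = 0.0059) and Jchain by 7.05 ± 1.51 (adjusted p = 0.00518). Within single mice the log2 ratios were 5.87 and 8.05 for Igha, 6.50 and 8.98 for Igkc and 6.34 and 8.77 for Jchain, larger each time in mouse 2, where T cells held less of these genes. Ighg2b, with 346 and 348 CPM in plasma cells against 20.3 and 3.25 CPM in T cells, was higher by 6.53 ± 1.42 (adjusted p = 0.00556). Iglc2, with 2444 and 2141 CPM against 194 and 19.4 CPM, was higher by 6.07 ± 1.75 (adjusted p = 0.0202). Iglc3 was higher by 6.51 ± 0.92 (adjusted p = 0.000576) and Ighg3, seen in plasma cells of mouse 1 alone, by 5.37 ± 1.73 (adjusted p = 0.0319), a call that DESeq2 did not give (5.24 ± 3.32, adjusted p = 0.195).

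The remaining heavy-chain genes were low in plasma cells. Ighm had 222 and 129 CPM in plasma cells and 148 and 180 CPM in T cells, so that the classes overlapped on that scale. On the TMM scale Ighm was higher in plasma cells by 1.82 ± 0.40 (log2, SE, edgeR adjusted p = 0.00614). The 3 IgM cells held 73.7% of the Ighm UMIs of all plasma cells of mouse 1 (8976 of 12172). In a fit without them, chosen after seeing the data, Ighm did not pass (0.84 ± 0.39, edgeR adjusted p = 0.104), and its level in plasma cells of mouse 1 was 58.4 CPM. A UMI of Ighm was seen in 16.3% and 17.0% of plasma cells, at a median total of 22896 and 19981 UMIs, and in 30.2% and 31.9% of T cells, at 3252 and 2569 UMIs. Ighd had 3.89 and 1.89 CPM against 6.44 and 12.2 CPM in T cells, a log2 fold change of 0.08 ± 0.43 (adjusted p = 0.895), and without the plasma cells that also passed another gate it was lower than in T cells (log2 fold change −2.85 ± 0.60, adjusted p = 0.00348). Ighg1 was seen in only 23 of 2307 plasma cells of mouse 1 and 5 of 704 of mouse 2, where 1 cell held 74 of 120 UMIs. On 235 UMIs in plasma cells and 2 in T cells, Ighg1 passed the edgeR test (adjusted p = 0.000631). The ratio of CPM was 43.7, with a counting interval of 12 to 363. Iglc1 missed the edgeR threshold, with a log2 fold change of 6.09 ± 2.71 (adjusted p = 0.0955). Its levels were 27154 and 3340 CPM in plasma cells and 1439 and 23.9 CPM in T cells. The sums pair by mouse, and in the fit that blocks on the mouse (a replicate block) Iglc1 passed (7.41 ± 1.11, edgeR adjusted p = 0.000287).

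Most genes of a plasma cell list were also higher. Of its 14 tested genes, 12 were higher and 1 was lower than in T cells (median log2 fold change 3.94), led by the receptor gene Tnfrsf17 (6.66), the syndecan gene Sdc1 (6.49) and the coactivator gene Pou2af1 (6.45), with Cd38 lower (−2.50). Of 14 tested genes of a list on IgA switching, homing and transport, 7 were higher and 2 lower, with the mucosal homing receptor gene Ccr10 higher (7.06) and the transcription factor gene Runx3 (−2.79) and the TGF-β receptor gene Tgfbr2 (−1.66) lower. Its member Il5ra had 22 UMIs in plasma cells and 0 in T cells, at least 2.72-fold higher in CPM. Of 17 genes of a B cell list, 14 were higher than in T cells and 1 lower, led by Cd79a (6.85), Ly6d (6.28) and Ebf1 (5.99), with Cd37 lower (−1.05). All these list counts stand beside 24.5% of all genes higher and 20.7% lower in plasma cells. Of the B cell gate, Cd79b supplied 92.2% and 97.0% of the UMIs in plasma cells, and Ms4a1 and Cd22 had a median of 0. The part of other cells in the plasma-cell sums was not tested.

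Over the 10 class sums, the genes whose log2(CPM + 1) followed Jchain most closely, immunoglobulin genes left out, were Derl3 (Pearson's r = 0.993), a (0.981), Kcnmb4os2 (0.958), Prg2 (0.944) and Reln (0.944). Derl3 is one of the gate genes, and the 10 sums share 2 libraries, so these are descriptions.

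B cells were marked by Ighm and Ighd. Ighm had 1874 and 3022 CPM in B cells against 148 and 180 CPM in T cells, and Ighd had 976 and 1570 CPM against 6.44 and 12.2 CPM, with no overlap between the classes. Of the 9 members tested, 2 passed, beside 7.71% of all genes higher and 8.03% lower in B cells (median log2 fold change 2.40 over the members and −0.13 over all genes). They were Ighm, higher by 4.20 ± 0.45 on the log2 scale (SE, edgeR adjusted p = 0.000278), and Ighd, higher by 7.40 ± 0.55 (adjusted p = 3.995e-05). Among the related genes, Iglc3 was higher by 5.27 ± 0.87 (adjusted p = 0.00309), with 837 and 930 CPM in B cells against 47.9 and 7.36 CPM in T cells.

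The other members did not pass against T cells in the unblocked fit. Igkc had 23907 and 28957 CPM in B cells and 14352 and 2319 CPM in T cells (log2 fold change 1.93 ± 1.25, edgeR adjusted p = 0.378), and under the replicate block by mouse it passed (2.82 ± 0.84, adjusted p = 0.0416). Iglc2 had 1196 and 1477 CPM in B cells against 194 and 19.4 CPM (3.91 ± 1.58, adjusted p = 0.144, and 4.96 ± 1.06, adjusted p = 0.00811, with the block). The block also brought Ighg2b past the threshold (2.40 ± 1.24, adjusted p = 0.258 without it, and 2.38 ± 0.68, adjusted p = 0.0356, with it), likewise Ighg3 (5.92 ± 1.93, adjusted p = 0.0738, and 5.15 ± 0.73, adjusted p = 0.000639). Igha had a log2 fold change of 1.30 ± 1.06 (adjusted p = 0.51), Jchain 0.85 ± 1.17 (adjusted p = 0.736) and Iglc1 0.87 ± 2.20 (adjusted p = 0.88). The B cell sum of Igha rested on few barcodes: the median B cell held 23 and 5 Igha UMIs, against 26 and 5 in T cells, and the highest held 2020 and 1355 UMIs. Ighg1 had 3 UMIs in all B cells and is given no fold.

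**Figure D5:**
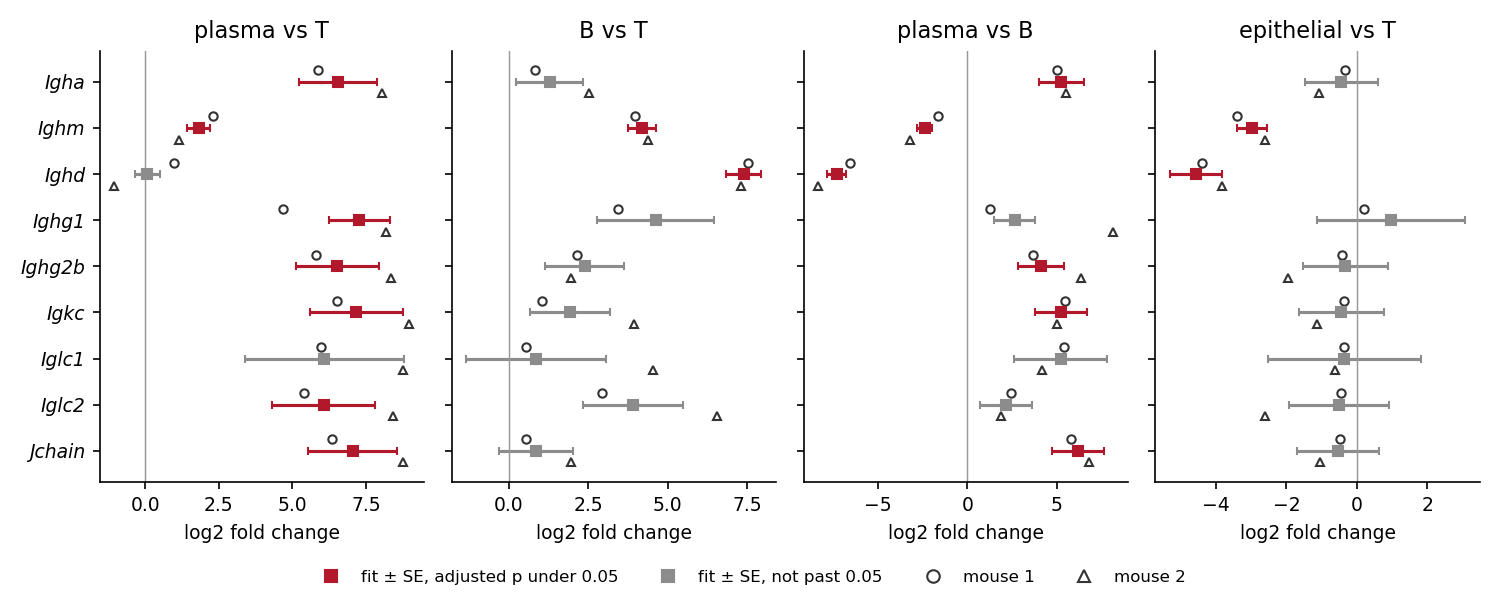
log2 fold change of the 9 tested members (squares with SE bars, red where the edgeR adjusted p was under 0.05) in 4 comparisons of class sums, with the ratio in each mouse as open symbols, left out where both classes of that mouse had no UMI. Igha, Igkc and Jchain lay between 5.24 and 7.17 above T and B cells in plasma cells, Ighm and Ighd were higher in B than in T cells and lower in epithelial than in T cells, and the plasma to T cell ratios of Igha, Igkc and Jchain were larger in mouse 2 than in mouse 1.

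Cell by cell, Ighm and Ighd occurred together. Both were seen in 303 of 356 B cells of mouse 1 (85.1%, interval 81.0 to 88.7%) and in 70 of 78 of mouse 2 (89.7%, interval 80.8 to 95.5%), against 0.927% and 1.68% of T cells. Ighm without Ighd was seen in 4.49% and 6.41% of B cells, and neither in 9.55% and 3.85%. Median totals were 3348 and 2362 UMIs per B cell and 3252 and 2569 UMIs per T cell. After each cell was thinned to 1000 UMIs, Ighm was seen in 81.4% and 91.0% of B cells against 12.1% and 14.8% of T cells, and Ighd in 57.5% and 71.8% against 0.367% and 1.27% (1 and 0 B cells and 25 and 60 T cells were too shallow). There were 1.92 Ighm UMIs for each Ighd UMI in B cells of both mice, and 23.1 and 14.8 in T cells. A UMI of an IgG gene was seen in 33 of 356 B cells (9.27%) and 2 of 78 (2.56%), against 6.92% and 0.878% of T cells, so that in mouse 1 a single such UMI was near background. At least 3 UMIs of an IgG gene were seen in 14 of 356 B cells (3.93%) against 4 of 3021 T cells (0.132%) in mouse 1. In mouse 2 it was 0 of 78 B cells, which allows a share of up to 3.85%, against 1 of 5240 T cells.

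Light-chain choice could not be read for most B cells of either mouse. In mouse 1 the 95th percentile of T cells was 102 Igkc UMIs, and the median B cell held 58, so that 10.4% of B cells passed it. In mouse 2, with the mark at 12 Igkc UMIs, 64 of 78 B cells passed (82.1%, interval 71.7 to 89.8%). Lambda UMIs passed their mark, 15 UMIs in mouse 1 and only 1 UMI in mouse 2, in 31.7% and 92.3% of B cells. In mouse 2 both chains passed in 75.6% of B cells, Igkc alone in 5 of 78 and lambda alone in 13. In mouse 2 the lambda counts were mostly Iglc2 and Iglc3, with 286 and 180 UMIs over all B cells against 88 of Iglc1. In mouse 1 Iglc1 had the most, with 2222 UMIs against 1564 of Iglc2 and 1095 of Iglc3. Iglc2 and Iglc3 had a median of 3 and 3 UMIs per B cell in mouse 1 and 3 and 2 in mouse 2. At least 1 UMI of either was seen in 98.6% and 96.2% of B cells, against 48.9% and 6.39% of T cells. Iglc1, at a median of 5 and 0 UMIs, was near its T cell level of 4 and 0.

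Plasma and B cells differed in both directions. Of the 9 members tested, 4 were higher in plasma cells, beside 13.6% of all genes, and 2 were lower, beside 11.2% (median log2 fold change 4.14 over the members and 0.25 over all genes). Jchain was higher by 6.19 ± 1.45 on the log2 scale (SE, edgeR adjusted p = 0.0147), Igha by 5.27 ± 1.25 (adjusted p = 0.0154), Igkc by 5.24 ± 1.44 (adjusted p = 0.0284) and Ighg2b by 4.14 ± 1.31 (adjusted p = 0.0474). Ighd was lower, at −7.32 ± 0.55 (adjusted p = 7.97e-05), and so was Ighm, at −2.39 ± 0.41 (adjusted p = 0.00365). Iglc2 (2.16 ± 1.47, adjusted p = 0.327) and Ighg1 (2.66 ± 1.16, adjusted p = 0.131) did not pass, nor did Iglc1 (5.23 ± 2.60, adjusted p = 0.183), which passed under the replicate block (4.65 ± 1.00, edgeR adjusted p = 0.00588). Of the related genes, neither Iglc3 (1.23 ± 0.73, adjusted p = 0.263) nor Ighg3 (−0.55 ± 1.51, adjusted p = 0.831) passed.

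The lists separated the classes in the same comparison, where 13.6% of all genes were higher in plasma cells and 11.2% lower. Of 14 plasma cell genes, 12 were higher in plasma cells and 1 lower (Cd38, −3.60), led by Tnfrsf17 (6.04), Prdm1, which encodes the factor that sets plasma cell identity (4.67), and Sdc1 (4.63). Of 17 B cell genes, 15 were lower, led by Fcer2a (−7.17), Pax5, the B cell identity factor gene (−7.03), and Fcmr, the IgM receptor gene (−6.88). Of 14 genes of IgA switching, homing and transport, 5 were higher, among them Ccr10 (5.27), Ccr9 (3.76) and Tgfbr1 (1.37), and 3 were lower, namely Cd40 (−5.67), Il5ra (−3.53) and Tgfbr2 (−1.76). Against T cells, all 17 B cell genes were higher in B cells, with Ebf1 at a log2 fold change of 11.2 ± 1.19, while Pax5 and Fcer2a, with 3 and 2 UMIs in T cells, had ratios of CPM of 3480 (counting interval 1190 to 16900) and 3850 (1060 to 31900). Of the plasma cell genes, 4 were higher in B than in T cells (Pou2af1 5.69, Irf4 2.90 and Ell2 2.13 the most) and 2 lower (Prdm1 −2.59 and Pim2 −2.49). The ratio of Irf4 rested on mouse 1, with 44.4 CPM in B cells against 6.82 CPM in T cells, a log2 ratio of 3.01, where mouse 2 had 5.17 against 4.84 CPM, a log2 ratio of 0.40. Of the IgA genes, 5 were higher, with Cd40 at 8.45, and 3 lower (Ccr9 −4.15, Runx3 −3.21 and Itgb7 −1.78). These list counts of B against T cells stand beside 7.71% of all genes higher and 8.03% lower. Il5ra, with 20 UMIs in B cells and 0 in T cells, was at least 114-fold higher in CPM.

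Epithelial and T cells, neither of which makes antibody, were compared for their level of these genes. The abundant members did not pass. Igha had a log2 fold change of −0.44 ± 1.04 (SE, edgeR adjusted p = 0.738), Igkc −0.44 ± 1.21 (adjusted p = 0.774), Jchain −0.55 ± 1.16 (adjusted p = 0.709), Iglc1 −0.36 ± 2.18 (adjusted p = 0.902), Iglc2 −0.51 ± 1.42 (adjusted p = 0.777) and Ighg2b −0.33 ± 1.21 (adjusted p = 0.831). With errors over 1 on the log2 scale, a difference of that size was not detectable here. Of the 9 members tested, 2 were lower in epithelial cells, beside 29% of all genes lower. Ighm had 10.1 and 24.8 CPM in epithelial cells against 148 and 180 CPM in T cells (log2 fold change −2.98 ± 0.43, edgeR adjusted p = 0.000355). Ighd had 1 UMI in epithelial cells of each mouse against 68 and 184 in T cells, a ratio of CPM of 37.2 (counting interval 10.2 to 308). Ighg1 had 1 UMI in epithelial and 2 in T cells and is given no fold, and Iglc3 stood at 0.07 ± 0.74 (adjusted p = 0.943). Myeloid cells had 117 and 86.7 CPM of Ighm, between epithelial and T cells, and 0.715 and 0.44 CPM of Ighd, below T cells. Per cell, Ighm had a mean of 0.648 and 0.569 UMIs in myeloid cells and 0.519 and 0.52 UMIs in T cells, and was seen in 30.8% and 26.3% of myeloid cells against 30.2% and 31.9% of T cells. Epithelial cells had a mean of 0.0814 and 0.196 Ighm UMIs, seen in 5.34% and 3.61% of cells.

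Epithelial cells carried the receptor that moves J chain-bearing antibodies. Pigr had 302 and 122 CPM in epithelial cells against 6.34 and 0.596 CPM in T cells, higher by 6.40 ± 1.07 (log2, SE, edgeR adjusted p = 0.000747). Of 14 genes of IgA switching, homing and transport, 3 were higher in epithelial cells, beside 34.7% of all genes (Pigr, Cd40 3.50 and Ung 2.52). Of the same 14, 6 were lower, beside 29% of all genes (Runx3 −5.69, Ccr9 −5.46 and Itgb7 −4.80 the most). Of 14 tested plasma cell genes, 2 were higher (Sdc1 2.51 and Ell2 1.97) and 9 lower, beside the same shares of all genes. Among the lower ones were Prdm1 (−3.64), Slamf7 (−3.34) and Cd93. Cd93, with 3 UMIs in epithelial cells, was lower at a ratio of CPM of 16.9 (counting interval 5.69 to 82.8). Of 17 B cell genes, 4 were higher and 3 lower, again beside 34.7% and 29% of all genes. The higher ones were led by the antigen presentation genes Cd74 (3.99) and H2-DMb2 (3.54) and by Bcl11a (3.29). The lower ones were Cd37 (−5.25), Bach2 (−2.39) and Cr2. Cr2 had 33 UMIs in T cells and 0 in epithelial cells, at least 3.24-fold lower in CPM.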

How the data were processed

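Libraries of live cells from the proximal small intestine of 2 mice were made with the 10x Genomics 3′ v3 chemistry. The authors deposited, for each mouse, a matrix of UMI counts per gene and barcode, not normalized, which the submitters' processing notes credit to Cell Ranger 6.1.2 and the genome build mm10. The annotation release is not given in the sources used here.

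From these counts, barcodes were filtered as stated above and sorted by gates on summed marker UMIs (at least 10 for plasma, 3 for B, T, myeloid and stromal, 5 for epithelial and 50 for acinar cells). Plasma cells were taken first, and other classes passed 1 gate only. Libraries held 85670711 and 38716743 UMIs over 9645 and 8800 barcodes. UMIs of each class were added up within a mouse, and genes passing filterByExpr were tested with edgeR 4.0.16 (TMM, quasi-likelihood, two-sided, Benjamini-Hochberg threshold 0.05) in R 4.3.3, over 10 sums of 5 classes. Classes under 20 cells in a mouse were not fitted, which left out the tests of IgA against IgM and of kappa against lambda plasma cells. Class sums of 1 mouse come from the same animal, and their deviations correlated at 0.11 to 0.59 over 10 pairs, so the blocked fit (replicate block by mouse) is given where it changed a call. On data simulated for plasma against T cells (12733 genes), 10.4% of genes changed by 1 on the log2 scale and 78.2% of those changed by 2 were recovered. Every gene was drawn at 1 common dispersion. These shares need not hold for the members, whose SEs ran from 0.40 to 2.71 in that comparison. DESeq2 1.42.0, other library sizes, filters, gates and thresholds were tried as alternatives. Genes named were the members, the genes most like Jchain, and up to 3 called genes in each direction of each list, and a few list and gate genes are not reported here by name. The members, lists and tests were chosen with earlier results of these data known. Sequences were read from GENCODE M21 transcripts of GRCm38, the assembly that mm10 names.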

Additional observations from a re-analysis of the deposited data

Results flagged for a closer look

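Immunoglobulin RNA was also high in barcodes that no comparison used. In the 1704 and 1843 barcodes removed by the quality filters, Igha had 36322 CPM in mouse 1 and 19632 CPM in mouse 2, against 8461 and 1947 CPM in T cells. Igkc had 64448 and 19491 CPM in the removed barcodes, against 14352 and 2319 CPM in T cells. The plasma gate was passed by 50 and 13 removed barcodes, with a median of 941.5 and 910 Igha UMIs. In the 567 and 262 kept barcodes that passed no gate, Igha had 59599 and 14874 CPM. Of these, 141 and 25 held more Igha than the 95th percentile of T cells, at a median of 237 and 14 Igha UMIs and of 4 and 3 UMIs of the plasma gate genes. The median removed barcode held 23 and 5 Igha UMIs and the median barcode past no gate 28 and 5, against 26 and 5 in T cells, at median totals of 996 and 1324 UMIs in removed barcodes, 1139 and 2334 in those past no gate and 3252 and 2569 in T cells. Without the top 1% of barcodes, Igha had 27156 and 12458 CPM in removed barcodes and 52515 and 8589 CPM in those past no gate. These barcodes were picked out because they lie outside the comparisons and their summed CPM stood above that of T cells.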

How the results depend on the processing

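With 2 mice, 1 group and no control, the tests compare cell classes and carry the spread between these animals only. Under other settings, 222 fold changes of the members kept their direction and their side of the threshold, 24 newly passed it, 1 lost it and 1 reversed. Among the 24 were Igha, Jchain and Iglc1 in B against T cells in the fit with no filter on low counts (SEs 0.105, 0.131 and 0.171). Iglc1 in plasma cells also passed with DESeq2, against T cells (DESeq2 adjusted p = 0.00214) and against B cells (DESeq2 adjusted p = 0.01635). The one lost was Ighm in plasma against T cells (0.84, edgeR adjusted p = 0.104) without the plasma cells called IgM, a setting chosen after seeing the data. Ighd turned to −2.85 (log2, plasma against T cells) without the plasma cells that also passed another gate. Iglc3, which did not pass in epithelial against T cells (0.07), turned to −0.13 with library sizes taken without immunoglobulin genes and −0.17 with no filter on low counts. Ighg3 lost its call in plasma against T cells with DESeq2 (adjusted p = 0.195) and gained one in B against T cells without the plasma cells past another gate (edgeR adjusted p = 0.0207). With no filter, genes lower in B than in T cells numbered 2166 (1023 with it), genes higher in plasma than in B cells 3064 (1727) and genes lower 885 (1421), and that fit gave Igkc in B against T cells an SE of 0.0872 where single mice gave 1.06 and 3.96. Thinning B cells to 500 UMIs gave Ighm in 66.4% and Ighd in 45.2% of cells on average over mice, and thinning to 2000 UMIs gave Ighd in 81.3%, against 83.8% and 66.4% at 1000 UMIs (averages over draws). With 1 mouse left out, the shares of IgA and lambda are only those of the other mouse. Mouse 1 alone gave 99.8% IgA and 5.71% lambda, and mouse 2 alone gave 100% and 0.624%. With a mouse left out, 58 fold changes of the members moved by less than the larger of the SD between mice and the SE. The other 12 moved by more. With 2 mice, each single ratio lies within 1 SD of the mean of both, so these counts do not measure robustness. Gene counts could not be had with 1 mouse left out, since no residual degrees of freedom remain. Library sizes without immunoglobulin genes moved the median of all genes from 0.08 to −0.10 in epithelial against T cells and from −0.13 to −0.26 in B against T cells. The replicate block by mouse changed no call of the members other than those given above (Igkc, Iglc2 and Ighg2b in B against T cells, and Iglc1 in plasma cells). The alternatives for IgA against IgM and kappa against lambda plasma cells were not run.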

Other observations

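A few cells of mouse 1 used the rarer lambda genes. In the 2 lambda IgA cells led by Iglc2, it had 1079 and 3392 UMIs beside 16 and 5 Iglc1 UMIs and 2 Iglc3 UMIs in each. The IgA kappa cell with the most Iglc3 had 2636 Iglc3 UMIs beside 12560 Igkc and 297 Iglc2 UMIs. Iglc4 was listed with 72 UMIs over all plasma cells and 0 in T cells, at least 8.92-fold higher in CPM. In lambda IgA cells of mouse 1, Ighm reached 10 UMIs in 11 of 127 cells (8.66%, exact interval 4.40 to 15.0%) and Ighg2b in 7 (5.51%, 2.24 to 11%), where IgA kappa cells had 3.0% and 16.0%. That difference was not tested, since these are cells of 1 mouse. These cells and genes were chosen after their values were seen.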
